A study of Mus musculus with 7 samples.

Results

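The Serpinb genes of mouse chromosome 1 were examined at the level of chromatin accessibility in CD4+ T cells from mice infected with the helminth Nippostrongylus brasiliensis. The members were Serpinb7, Serpinb2, Serpinb10 and Serpinb8, and every ATAC-seq region that overlapped a GENCODE gene body or the 10 kb on either side of it was taken. This gave 8 of the 113820 regions measured. Of these, 4 lay in the Serpinb2 window, 3 in the Serpinb10 window, 4 in the Serpinb8 window and 0 in the Serpinb7 window. The counts overlap because 3 regions fell in the windows of both Serpinb2 and Serpinb10. Of those, 2 lay inside both gene bodies, could not be given to a nearer gene, and are described as belonging to both. The cluster was selected on a measured value: a region in it that was far more accessible in lung IFNγ+ than in lung IL-4+ cells. That comparison is therefore a description here: no p value is given for it, and the regions of it that met the call rule are counted without anything being read from the count. The IFNγ+ minus LN IL-4+ comparison uses the same IFNγ+ libraries, so its p values elsewhere in the cluster are not independent of the choice.

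Clade B serpins are intracellular protease inhibitors that trap their target through an exposed reactive loop. Serpinb2, also called plasminogen activator inhibitor 2, inhibits the urokinase and tissue plasminogen activators and is best known as a gene that activated monocytes and macrophages induce strongly. Serpinb8 inhibits furin and related proteases, Serpinb10 (bomapin) is known from myeloid cells, and Serpinb7 (megsin) from kidney mesangium and skin. ATAC-seq cuts DNA with the Tn5 transposase where chromatin is open, so a region with many insertions is accessible, whatever the RNA or protein level of a nearby gene.

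All mice were C57BL/6 animals given 500 L3 larvae under the skin and analysed on day 8. GFP+ CD4+ T cells were sorted from the mediastinal lymph node (LN IL-4+, n = 2) and the lung (lung IL-4+, n = 3) of IL-4-4get reporter mice, in which GFP marks cells competent to express IL-4. YFP+ CD4+ T cells were sorted from the lung of IFN-gamma-Great reporter mice (lung IFNγ+, n = 2). Each library came from 50000 cells that were CD3ε+ and CD4+ and lacked CD11b, CD11c, CD8, B220, NK1.1 and Ter119. Cytokine and reporter line thus differ together between the IL-4+ and the IFNγ+ libraries and cannot be told apart. Lungs were digested with enzymes and lymph nodes dissociated mechanically, so tissue and preparation also differ together between lung and LN libraries. Between IFNγ+ and LN IL-4+ cells, cytokine, reporter line, tissue and preparation therefore cannot be told apart. All mice belonged to a single experiment.

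Depth, rebuilt from the tied values of each library, ranged from 14005923 to 91681969 insertions, with both IFNγ+ libraries among the 3 deepest. The libraries also fell into 2 classes by the spread of their rebuilt counts. Both IFNγ+ libraries had a wide spread, as did replicate 2 of LN IL-4+ and replicate 1 of lung IL-4+, and the other 3 had a narrow one. Lung IL-4+ replicate 1 therefore stood with the IFNγ+ libraries in this respect and apart from the rest of its own group. All 7 T cell marker genes had a region within 1 kb of a start in the table. Their summed density was 186 to 247 in LN IL-4+, 161 to 254 in lung IL-4+ and 159 to 160 in IFNγ+ libraries, the lowest. The Th1 markers Ifng, Tbx21 and Cxcr3 also had such regions. Those summed to 13.4 to 19.5 in LN IL-4+, 24.9 to 37.2 in lung IL-4+ and 96.3 to 97.5 in IFNγ+ libraries. Ifng (59.5 and 62.4) and Cxcr3 (32.8 and 28.4) made up that IFNγ+ sum. Tbx21, which encodes the Th1 factor T-bet, measured 5.22 and 5.39 in IFNγ+ libraries, within its range of 2.59 to 8.22 in the IL-4+ libraries.

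In GRCm38/mm10 the genes run in the same direction. Serpinb7 lies at chr1:107399655-107452689, Serpinb2 at chr1:107511423-107535478, Serpinb10 at chr1:107529003-107549271 and Serpinb8 at chr1:107590006-107610484, all on the + strand. GENCODE classes Serpinb10 as a polymorphic pseudogene that also has a protein-coding transcript. The region that led to the choice of the cluster lies at chr1:107533702-107534123 and is 422 bases long. It sits in intron 1 of the protein-coding Serpinb10 transcript, 1331 bases past the nearest Serpinb10 start. It falls within Serpinb2 only through a long transcript annotated for nonsense-mediated decay, in intron 6. It is called the second intron 1 region here, and the region at chr1:107532965-107533365, in the same introns and 594 bases past the same start, is called the first.

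The central 300 bases of the second intron 1 region are shown because that region carries the largest difference in the cluster. The sequence upstream of the Serpinb8 start that lies within the Serpinb8 promoter region is shown because it is the promoter of the cluster with a region in the table that passed the call rule between IFNγ+ and LN IL-4+ cells. Both are given 5′ to 3′ on the + strand of GRCm38.p6 as provided by RefSeq, and capitals mark letters of a motif that was searched.
Second intron 1 region, chr1:107533763-107534062: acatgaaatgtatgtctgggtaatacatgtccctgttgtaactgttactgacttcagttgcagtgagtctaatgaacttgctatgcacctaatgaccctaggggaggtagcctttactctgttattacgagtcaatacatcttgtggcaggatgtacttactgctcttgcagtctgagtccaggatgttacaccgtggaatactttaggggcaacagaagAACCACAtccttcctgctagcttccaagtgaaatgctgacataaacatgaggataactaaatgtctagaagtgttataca
Serpinb8 promoter, chr1:107589803-107590005: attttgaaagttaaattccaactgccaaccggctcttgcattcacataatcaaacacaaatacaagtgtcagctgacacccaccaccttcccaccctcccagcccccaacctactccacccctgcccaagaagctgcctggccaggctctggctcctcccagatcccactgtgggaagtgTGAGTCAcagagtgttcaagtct

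Motifs were searched as fixed letters on both strands of the central 400 bases of every region. In the second intron 1 region the single match was the Runx motif, AACCACA, at chr1:107533983-107533989. Runx letters were present in 2 of the 8 Serpinb regions and in 13.6% of all regions. The other Runx holder was the region at chr1:107543733-107544133 in intron 6 of Serpinb10, which has 2 matches. The bZIP letters, TGAGTCA or the same with C at the centre, were present in 3 of 8, against 11.5% of all regions. When whole regions were searched, 4 of 8 held them, against 17.2% of all regions.

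The T-box letters (AGGTGTGA) were in 0 of the 8 regions, against 2.20% of all regions. The NFAT letters (TGGAAAA) were likewise in 0 of the 8, where 9.55% of all regions held them. The GATA letters (AGATAA) were in 2 of the 8 and in 19.7% of all regions. The TCF letters, TTCAAAG or the same with A in first place, were in 2 of the 8 and in 16.2% of all regions. The ETS letters, AGGAAGT or the same with C in first place, were in 1 of the 8 and in 18.5% of all regions. The STAT letters (TTCNNNGAA) were in 1 of the 8, at more than a single place in Serpinb2 intron 2, and in 12.3% of all regions. A TCF match in Serpinb2 intron 2 lies within a STAT match and is not separate from it. These matches describe letters and not bound factors.

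The surroundings of the Runx and bZIP matches that lie outside exons are set side by side below, so that the flanks of the same letters can be compared.
Runx, second intron 1 region, chr1:107533973-107533999: gcaacagaagAACCACAtccttcctgc
Runx, Serpinb10 intron 6, chr1:107543882-107543908: cgctaaccagAACCACAgaatcttcac
Runx, Serpinb10 intron 6, chr1:107544089-107544115: ctctgcatgaTGTGGTTgaggtaaaag
bZIP, Serpinb2 intron 2, chr1:107517871-107517897: tagtggcataTGACTCAgagagcagag
bZIP, far region upstream of Serpinb8, chr1:107583047-107583073: tgttgaattaTGAGTCAttgaaagtgg
bZIP, near region upstream of Serpinb8, chr1:107584261-107584287: tgcatatgaaTGAGTCAaaaagaggaa
bZIP, Serpinb8 promoter, chr1:107589973-107589999: gtgggaagtgTGAGTCAcagagtgttc

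The bZIP letters occur a second time in the Serpinb8 promoter region, at chr1:107590019-107590025, just past the start. Among 32851 RefSeq promoters, taken as the 250 bases before to 50 after a start, 5.20% held these letters. No region of the table overlapped the RefSeq promoters of Serpinb7, Serpinb2 or Serpinb10, while 1 overlapped that of Serpinb8. The second intron 1 region has a GC content of 39.8% and the Serpinb8 promoter region one of 52.9%, against a median of 46.9% over all regions.

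**Figure D1:**
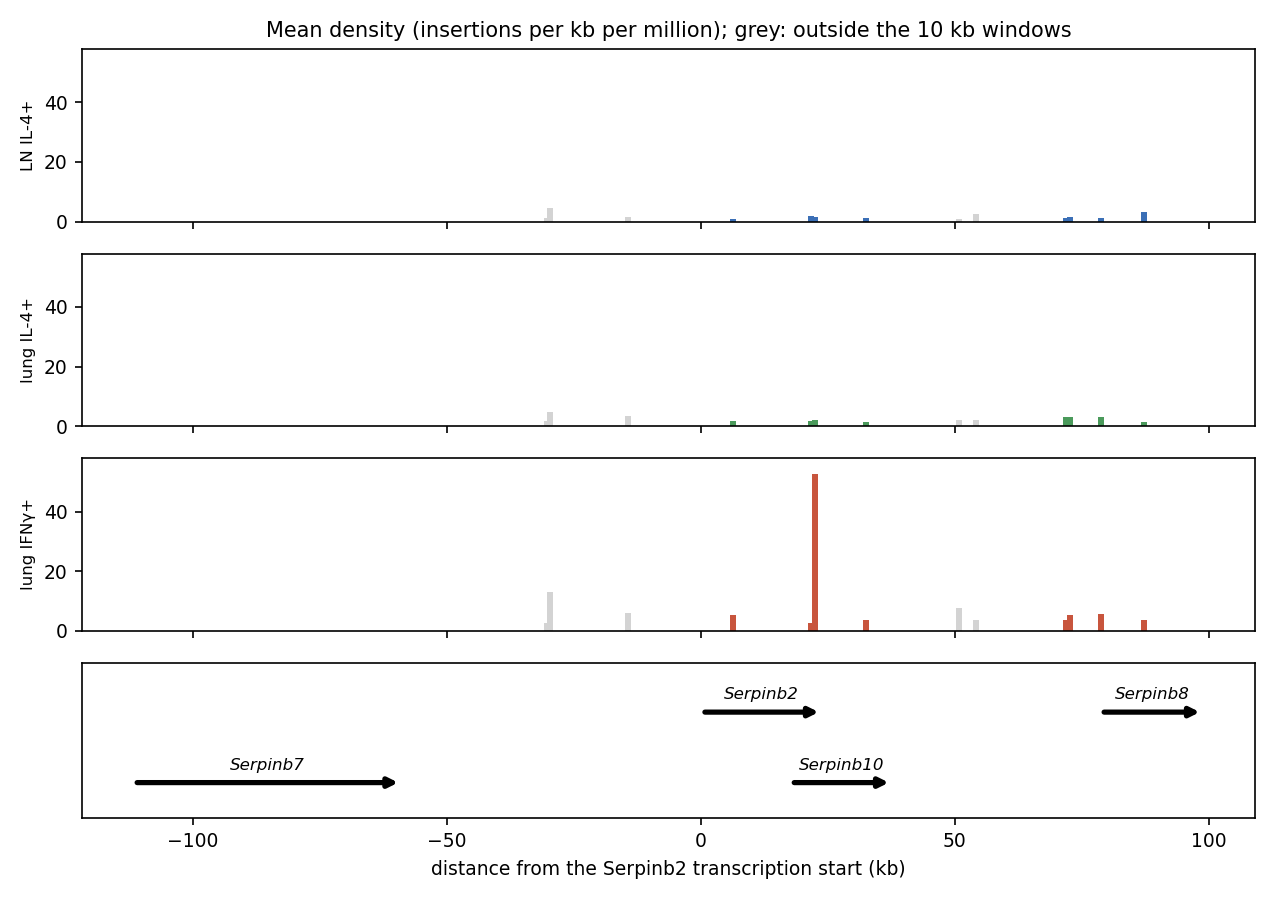
Mean accessibility density (insertions per kb per 1000000 insertions, vertical axis) of every region within 100 kb, against distance from the Serpinb2 transcription start in kb, for each of the populations, with the 4 genes as arrows. Coloured bars are the 8 regions of the cluster and grey bars lie outside the windows; a single region reaches a mean of 52.6 in IFNγ+ cells and no bar of the IL-4+ panels reaches 5.

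The second intron 1 region was at a low level in every IL-4+ library and among the most accessible regions of both IFNγ+ libraries. Its log2 density was 0.20 and 0.93 in LN IL-4+, and −0.23, 1.49 and 1.53 in lung IL-4+ replicates 1 to 3. It was 5.75 and 5.68 in the IFNγ+ libraries. The 2 IFNγ+ libraries thus agreed closely with each other, and the 5 IL-4+ libraries lay far below them without any overlap. On the linear scale the mean density was 1.53 in LN IL-4+, 2.18 in lung IL-4+ and 52.6 in lung IFNγ+ cells. The IFNγ+ values stood above 97.2% and 97.0% of all regions of their library, while in the IL-4+ libraries the region stood above 2.6% to 28.1%. The lowest IFNγ+ value exceeded the highest IL-4+ value by 4.15 on the log2 scale, which ranked 2 among the 113820 regions.

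The rebuilt insertion counts behind these values were 29 and 32 in LN IL-4+, 7, 52 and 34 in lung IL-4+, and 1401 and 2417 in lung IFNγ+ libraries. The IL-4+ levels thus rest on few insertions, the fewest in lung IL-4+ replicate 1. IFNγ+ cells were higher than lung IL-4+ cells by 4.79 (log2, SE 0.53) and higher than LN IL-4+ cells by 5.15 (SE 0.58). Both values are descriptions, since the first is the comparison used for the choice and the second uses the same IFNγ+ libraries. Without lung IL-4+ replicate 1, the difference from lung IL-4+ cells was 4.21. Among libraries of the wide spread class alone, the IL-4+ values were 0.93 and −0.23 and remained below both IFNγ+ values. In a bulk library, a smaller share of cells with the region open and a lower accessibility in each cell cannot be told apart.

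The comparison of lung with lymph node IL-4+ cells was not the one used for the choice, although it shares the lung IL-4+ libraries with it. At the second intron 1 region they differed by 0.36 (log2, lung minus LN, SE 0.53, 95% interval −0.81 to 1.54), with an adjusted p of 0.812 by limma. The libraries of both groups overlapped. The sign of this small difference was not stable: it was −0.0046 without LN IL-4+ replicate 1 and −0.11 with voom on rebuilt counts.

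**Figure D2:**
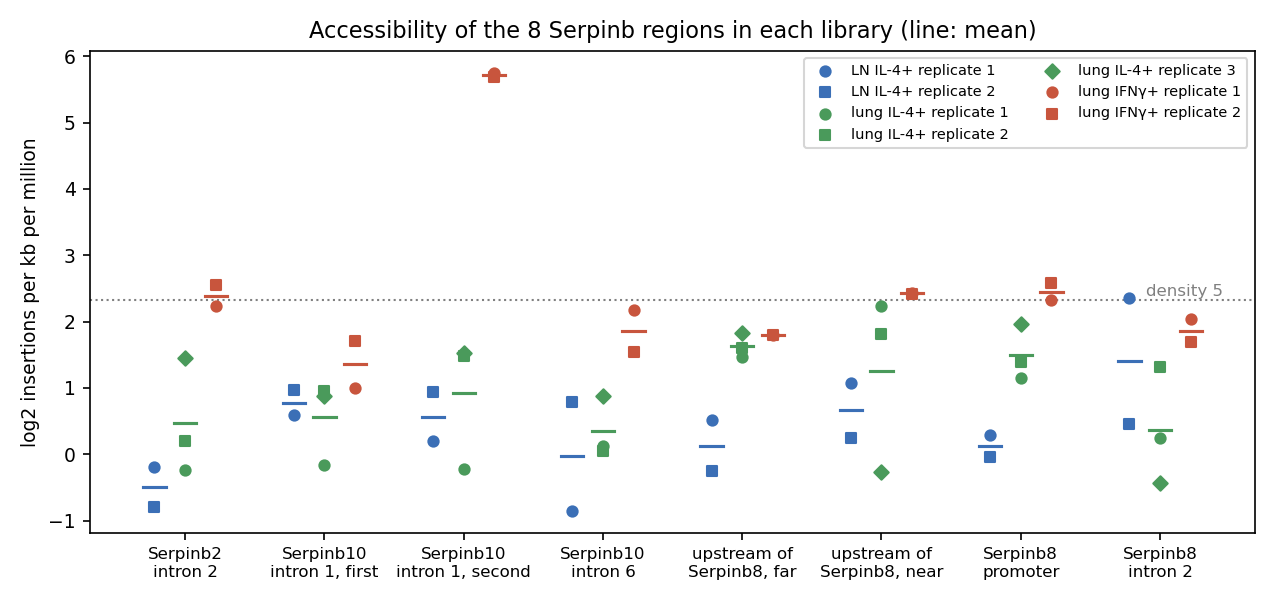
Log2 accessibility density (insertions per kb per 1000000, vertical axis) of the 8 regions in each of the 7 libraries, ordered along the chromosome; points are libraries, short lines are population means and the dotted line is a density of 5. The second region in Serpinb10 intron 1 reaches 5.75 and 5.68 in the IFNγ+ libraries, while the other regions stay at or below 2.58 in every library.

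The other regions of Serpinb2 and Serpinb10 stayed far below the second intron 1 region in IFNγ+ cells, at mean densities of 2.64 to 5.28. The region in intron 2 of Serpinb2, at chr1:107517458-107517969, had a log2 density of −0.19 and −0.79 in LN IL-4+ and −0.23, 0.20 and 1.46 in lung IL-4+ libraries. It measured 2.23 and 2.55 in the IFNγ+ libraries, above all 5 IL-4+ libraries. Compared with LN IL-4+ cells, the IFNγ+ value was higher by 2.88 (SE 0.73, 95% interval 1.27 to 4.49). The adjusted p by limma was 0.0544, above the threshold of 0.05. Lung IL-4+ cells exceeded LN IL-4+ cells there by 0.97 (SE 0.66, adjusted p 0.540), with overlapping libraries.

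The first intron 1 region lies close to the second, yet it differed far less between the populations. Its log2 density was 0.59 and 0.97 in LN IL-4+, −0.16, 0.95 and 0.87 in lung IL-4+, and 1.00 and 1.71 in IFNγ+ libraries. The IFNγ+ minus LN IL-4+ difference was 0.58 (SE 0.66, 95% interval −0.88 to 2.04, adjusted p 0.679 by limma). This is the region of Serpinb10 that lies within 1 kb of an annotated start.

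In intron 6 of Serpinb10 the log2 density was −0.85 and 0.79 in LN IL-4+, 0.12, 0.04 and 0.87 in lung IL-4+, and 2.17 and 1.54 in IFNγ+ libraries. Both IFNγ+ libraries were the highest, with a difference from LN IL-4+ of 1.89 (SE 0.75, adjusted p 0.212 by limma) that did not pass the test.

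Serpinb8 had a region over its promoter, with a mean density of 2.92 in lung IL-4+ and 5.49 in IFNγ+ cells and a lower one in LN IL-4+ cells. The region over its start and first exon, at chr1:107589803-107590517, had a log2 density of 0.30 and −0.05 in LN IL-4+, 1.14, 1.39 and 1.97 in lung IL-4+, and 2.32 and 2.58 in IFNγ+ libraries. The populations did not overlap and rose from lymph node through lung IL-4+ to IFNγ+ cells. Rebuilt counts there ran from 26 to 69 in the IL-4+ libraries and were 160 and 347 in the IFNγ+ libraries.

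At this promoter, IFNγ+ cells rose over LN IL-4+ cells by 2.32 (log2, SE 0.51, 95% interval 1.19 to 3.46), with an adjusted p of 0.0323 by limma. This p value is not independent of the choice of the cluster, which rested on the same IFNγ+ libraries. The call was lost in 7 of 20 alternative analyses although the direction held in all. Alternatives that lowered or dropped the fold threshold or changed the window size reused the main fit of this region. They could not lose the call. Leaving out an LN or IFNγ+ library leaves 1 library in that group, which is then assumed to vary like the other groups. With a single library left out, the adjusted p values of the lost calls were 0.0571 (without LN replicate 1), 0.0523 (without LN replicate 2), 0.0602 (without replicate 2 of lung IL-4+), and 0.305 and 0.359 without IFNγ+ replicate 1 or 2. Lung IL-4+ cells exceeded LN IL-4+ cells by 1.38 (SE 0.47, 95% interval 0.34 to 2.41), and the adjusted p was 0.164. IFNγ+ cells exceeded lung IL-4+ cells by 0.95 (SE 0.47), described here without a test.

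Upstream of Serpinb8 lay a pair of intergenic regions. The far one, at chr1:107582949-107583607 and 6399 bases from the gene, had a log2 density of 0.51 and −0.25 in LN IL-4+, 1.47, 1.61 and 1.82 in lung IL-4+, and 1.80 and 1.80 in IFNγ+ libraries. Here the lung populations stood together above the lymph node: lung IL-4+ exceeded LN IL-4+ by 1.51 (SE 0.48, 95% interval 0.45 to 2.57) and IFNγ+ exceeded it by 1.67 (SE 0.52). Neither passed the adjustment over all regions, with adjusted p values of 0.137 and 0.113 by limma. The far region was therefore the Serpinb region with the largest lung IL-4+ minus LN IL-4+ difference.

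The near one, at chr1:107583816-107584398 and 5608 bases from the gene, varied within the lung IL-4+ group, at 2.24, 1.82 and −0.27. It was 1.08 and 0.25 in LN IL-4+ and 2.43 and 2.41 in IFNγ+ libraries. The IFNγ+ minus LN IL-4+ difference was 1.76 (SE 0.77, adjusted p 0.254 by limma).

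Within Serpinb8, the region in intron 2 at chr1:107598497-107598897 had a log2 density of 2.36 and 0.46 in LN IL-4+, 0.25, 1.31 and −0.44 in lung IL-4+, and 2.04 and 1.69 in IFNγ+ libraries. It was the region of the cluster with the highest mean in LN IL-4+ cells and the one whose LN IL-4+ replicate 1 exceeded both IFNγ+ libraries. Lung IL-4+ minus LN IL-4+ was −1.04 (SE 0.71, adjusted p 0.536 by limma).

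**Figure D3:**
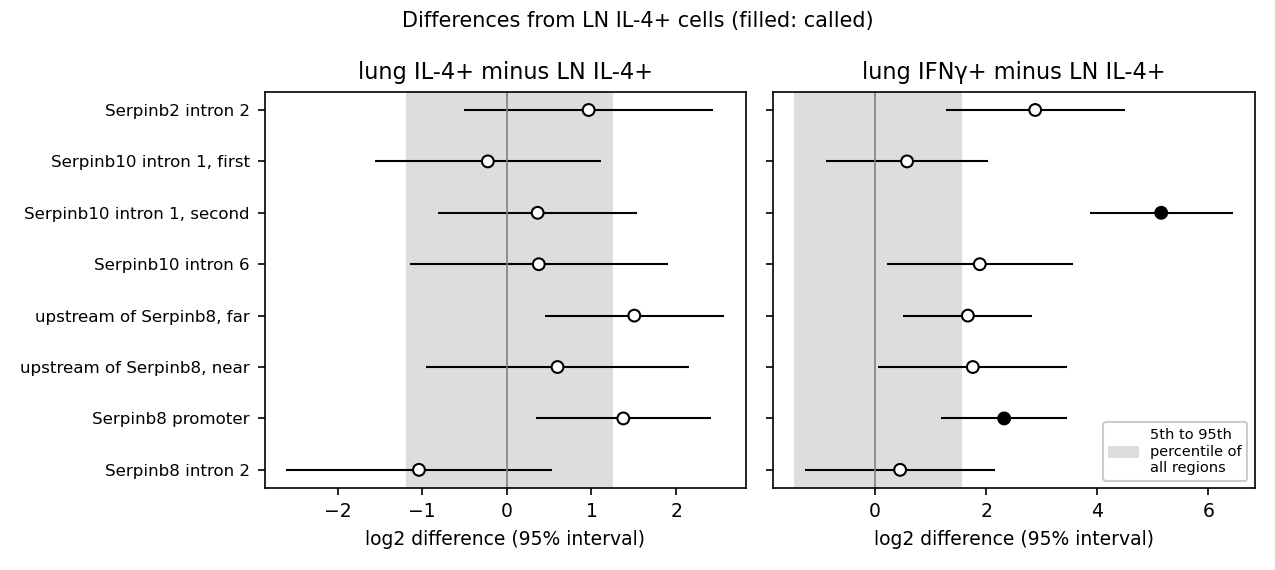
Log2 difference from LN IL-4+ cells (horizontal axis) of lung IL-4+ cells (left) and lung IFNγ+ cells (right) for the 8 regions, with 95% intervals from limma; filled points were called and the grey band spans the 5th to 95th percentile of all regions. In the right panel, all 8 points lie above 0, from 0.45 to 5.15, whereas in the left panel they run from −1.04 to 1.51.

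Over the 8 regions, 0 were called higher in lung IL-4+ than in LN IL-4+ cells by limma (adjusted p below 0.05 and at least 3-fold), where 1.05% of all regions were. None was called higher in LN IL-4+ cells, against 0.695% of all regions. At an unadjusted p under 0.05, 2 were higher in lung IL-4+ cells and 0 in LN IL-4+ cells, and voom on rebuilt counts also called 0 in both directions. The 2 regions were the far upstream region and the promoter of Serpinb8, which were also the 2 whose libraries did not overlap (13.6% of all regions). The mean was higher in lung IL-4+ cells at 6 of 8 regions, against 47.7% of all regions, and the median difference was 0.49 against −0.03 over all regions.

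Between IFNγ+ and LN IL-4+ cells, 2 of the 8 regions met the call rule with higher values in IFNγ+ cells, where 2.17% of all regions did. Of these, the second intron 1 region met it through the libraries for which it was chosen and counts as a description. The other was the Serpinb8 promoter, whose call uses the same IFNγ+ libraries and is not independent of the choice. None was called higher in LN IL-4+ cells, against 0.862% of all regions, and 0 were at an unadjusted p under 0.05 or with voom. The libraries did not overlap at 7 of 8 regions, against 26.5% of all regions, and the mean was higher in IFNγ+ cells at all 8, against 48.5%. The median difference was 1.82, against −0.03 over all regions. These counts use the IFNγ+ libraries that led to the choice of the cluster, and the regions are neighbours in the same libraries, so they are not separate tests.

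In the comparison used for the choice, 1 region, the one selected, met the call rule with higher values in IFNγ+ than in lung IL-4+ cells (0.387% of all regions) and 0 the other way (0.108%). At an unadjusted p under 0.05 the latter count was also 0, as it was with voom. Libraries did not overlap at 7 of 8 regions (21.2% of all regions) and the mean was higher in IFNγ+ cells at 8 of 8 (50.3%). Nothing is read from these counts.

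By the definition of an accessible region as a mean density of 5, 4 of the 8 Serpinb regions were accessible in IFNγ+ cells and 0 in either IL-4+ population. Over all regions, 42.9% were accessible in IFNγ+, 43.7% in LN IL-4+ and 43.6% in lung IL-4+ cells. In any of the populations, 66252 regions (58.2%) passed this limit. The paper reports more accessible regions, so the limit as applied here does not reproduce its set. Apart from the second intron 1 region, the accessible ones were Serpinb2 intron 2, the near upstream region and the promoter of Serpinb8, with mean densities of 5.28, 5.37 and 5.49, just past the limit.

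The summed density of each window gave the accessibility around each gene, which is not a level of its RNA. For Serpinb2 it was 4.08 and 6.17 in LN IL-4+, 3.69, 6.92 and 9.29 in lung IL-4+, and 65.1 and 63.3 in IFNγ+ libraries. For Serpinb10, which shares most of these regions, it was 3.20 and 5.60, 2.84, 5.77 and 6.55, and 60.4 and 57.5 in the same order. For Serpinb8 it was 9.90 and 4.37, 10.9, 11.7 and 9.03, and 18.0 and 18.0. The means were 64.2 ± 1.27 (SD, n = 2) in IFNγ+ cells, 6.63 ± 2.81 (n = 3) in lung IL-4+ cells and 5.13 ± 1.48 (n = 2) in LN IL-4+ cells for Serpinb2. For Serpinb8 they were 18.0 ± 0.014, 10.5 ± 1.36 and 7.14 ± 3.91. Serpinb7 has no region in its window, so no sum can be given for it, also with 25 kb on each side.

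A single region made up most of the Serpinb2 sum in IFNγ+ libraries. The second intron 1 region contributed 82.8% and 81.0% of it there, and 23.1% to 40.5% in the IL-4+ libraries. Without it, the Serpinb2 sum was 2.94 and 4.26 in LN IL-4+, 2.83, 4.11 and 6.41 in lung IL-4+, and 11.2 and 12.0 in IFNγ+ libraries. The IFNγ+ libraries thus remained the highest, with a log2 difference of 1.71 from LN IL-4+ and 1.46 from lung IL-4+ cells.

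The sums of single genes overlapped between lung and LN IL-4+ libraries. Lung minus LN was 0.30 (log2) for Serpinb2, 0.17 for Serpinb10 and 0.67 for Serpinb8, with two-sided exact permutation p values of 0.6, 0.8 and 0.4. With 3 against 2 libraries the smallest p is 0.1. For Serpinb8, IFNγ+ exceeded LN IL-4+ by 1.45 with an exact permutation p of 0.3333, the smallest that 2 against 2 libraries allow. All were 0.8 after Benjamini-Hochberg adjustment over 4 tests. The Serpinb8 values depended on the LN IL-4+ libraries: IFNγ+ minus LN was 2.04 and lung minus LN IL-4+ 1.26 when LN replicate 1 was left out, and they were 0.86 and 0.08 when LN replicate 2 was left out. Summed over all 8 regions, the density was 14.0 and 10.5 in LN IL-4+ and 14.6, 18.6 and 18.3 in lung IL-4+ libraries, which did not overlap (log2 difference 0.49, not tested). Within the wide spread class, the lung minus LN difference turned to −0.74 for Serpinb2 and −0.98 for Serpinb10, with 1 library on each side, while within the narrow class it was 0.97 and 0.94. For Serpinb8 it was 1.32 in the wide and 0.05 in the narrow class.

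**Figure D4:**
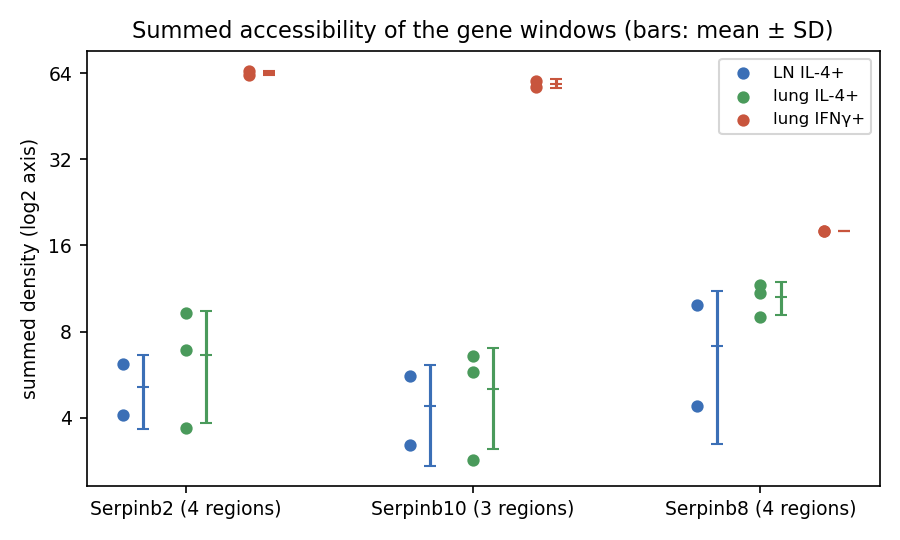
Summed accessibility density of the Serpinb2, Serpinb10 and Serpinb8 windows (vertical log2 axis) in each library, with mean ± SD beside the points. Serpinb2 and Serpinb10 share 3 regions and both stand between 57.5 and 65.1 in the IFNγ+ libraries, whereas Serpinb8 reaches 18.0.

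The regions nearest to the 10 kb limit on its outer side were highest in the IFNγ+ libraries, and the next one was not. At 14061 bases upstream of Serpinb2 (chr1:107496962-107497362), the log2 density was 0.77 and 0.27 in LN IL-4+, 2.09, 1.61 and 1.31 in lung IL-4+, and 2.76 and 2.36 in IFNγ+ libraries. At 12804 bases past Serpinb10 (chr1:107562075-107562508), it was 0.66 and −1.16, 0.50, 1.67 and 0.48, and 2.92 and 2.86. Further out, a region 16147 bases past Serpinb10 (chr1:107565418-107565818), measured 2.18 and −0.44, 0.84, 0.82 and 1.22, and 1.88 and 1.84, so that LN IL-4+ replicate 1 was the highest. The members nearest to the limit were the far and near regions upstream of Serpinb8, 6399 and 5608 bases from the gene.

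The regions whose profile over the 7 libraries came closest to that of the second intron 1 region, by root mean square difference after centring, lay in different parts of the genome. The closest of the regions outside the windows was in an intron of Ntn4, which encodes netrin 4 (chr10:93697496-93698258), with a difference of 0.50. It had a log2 density of −0.68 to 1.07 in the IL-4+ libraries and 4.44 and 4.57 in the IFNγ+ libraries. Next came a region at −5449 bases from the start of Ifng, the gene of the cytokine that defines the sort (chr10:118435290-118435904, 0.85). Regions nearest Prkca, a protein kinase C gene (0.89), Rap2a, a small GTPase gene (0.89), and Atp8b4, a phospholipid flippase gene (0.89), followed.

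Among 17021 genes compared by their summed density, Klra9 (0.49), Psme2b (0.56), Klra3 (0.69), Cxcr3 (0.71) and Gm20765 (0.73) were most like Serpinb2. All of these but Cxcr3 had 1 region each, so their sums are single regions. The Serpinb2 sum was itself 82.8% and 81.0% the second intron 1 region in the IFNγ+ libraries. This ranking therefore rests mostly on that region. Klra9 and Klra3 encode Ly49 receptors known from natural killer cells, and belong to a family of near-identical genes, so their reads are uncertain. Cxcr3, with 8 regions, is a chemokine receptor typical of Th1 cells. These profiles are descriptions over 7 libraries of the same sort.

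**Figure D5:**
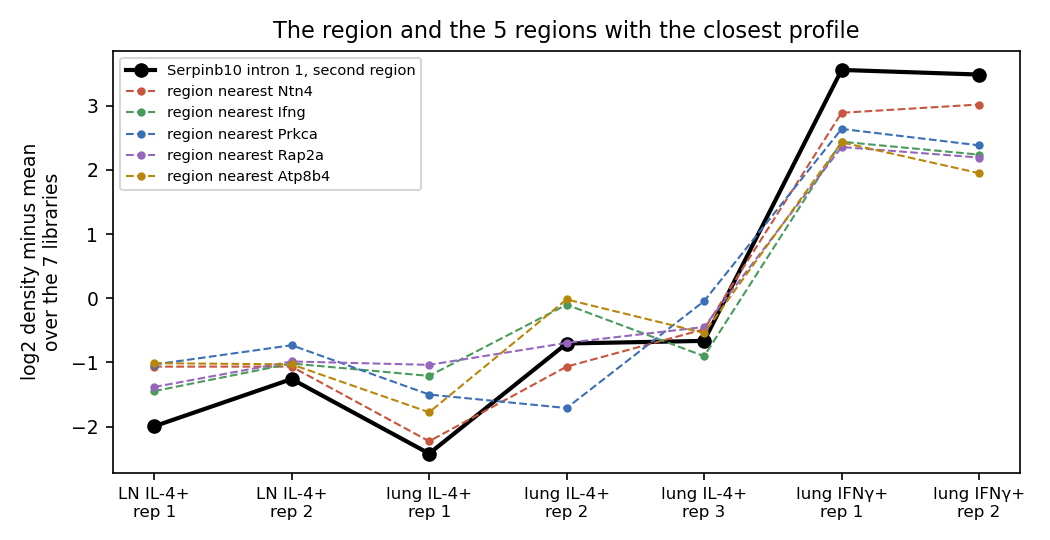
Log2 accessibility density minus its mean over the 7 libraries (vertical axis) of the second intron 1 region (black) and of the 5 regions with the closest profile (dashed). All lines are low in the 5 IL-4+ libraries and high in both IFNγ+ libraries, and the black line has the largest rise.

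Markers of other cell types were checked beside these results, since Serpinb2 and Serpinb10 are known from myeloid cells. Of 6 myeloid genes, 4 had a promoter region in the table and Csf1r and Lyz2 had none. Their summed density was 53.1 to 69.0 in LN IL-4+, 36.8 to 39.2 in lung IL-4+ and 38.1 to 39.1 in IFNγ+ libraries. Cebpa was the largest part of each sum, at 46.2 and 40.7 in LN IL-4+ libraries. It was lowest in IFNγ+ libraries, at 18.1 and 19.2, so a rise in another gene can be hidden in the sum. Spi1 and Cd14 lay within their IL-4+ ranges in both IFNγ+ libraries. A single myeloid gene, Itgam, which encodes CD11b, was highest in IFNγ+ libraries, at 7.77 and 5.39 against 0.898 to 2.89 in the IL-4+ libraries. Its part in the Serpinb values was not tested. None of the 4 mast cell and basophil genes and 1 of the 4 B cell genes, Pax5, had a promoter region. Pax5 measured 41.5 and 42.3 in LN IL-4+, 12.2 to 23.0 in lung IL-4+ and 17.4 to 22.2 in IFNγ+ libraries. CD8 and natural killer genes (2 of 4, without Cd8a and Ncr1) summed to 11.0 to 13.1, 8.41 to 14.5 and 12.4 to 14.3, in the same order of populations. Klrb1c measured 10.4 and 8.30 in IFNγ+ libraries, against 4.35 to 8.89 in the IL-4+ libraries. Cd8b1 measured 3.94 and 4.09, against 2.95 to 7.31. Epithelial genes (3 of 4, without Sftpc) summed to 26.2 to 32.9, 26.0 to 32.8 and 34.7 to 37.0, in the same order. The epithelial sum was highest in IFNγ+ libraries through Cdh1 alone (at most 23.7, and above the 12.1 to 18.0 of the IL-4+ libraries in both), whereas Epcam and Krt18 lay within their IL-4+ ranges. The part of Cdh1 was not tested. The Th2 genes Il4, Il13, Gata3 and Il1rl1 summed to 131 to 158 in LN IL-4+, 164 to 228 in lung IL-4+ and 99.9 to 113 in IFNγ+ libraries. The follicular helper genes Cxcr5, Bcl6 and Pdcd1 summed to 110 to 140, 98.5 to 112 and 106 to 114 in the same order. Bcl6 was the largest part of each sum. Cxcr5 was highest in LN IL-4+ libraries, at 28.5 and 19.7, against 6.80 to 15.1 in lung IL-4+ and 7.51 and 7.75 in IFNγ+ libraries. Bcl6 and Pdcd1 overlapped between LN and lung IL-4+ libraries.

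Other clade B serpins on chromosome 1 were mostly without regions. Of 8 genes 3 had any, with 6 regions. Of these, 0 were called higher in IFNγ+ or lung IL-4+ than in LN IL-4+ cells, against 2.17% and 1.05% of all regions. The median difference from LN IL-4+ was −0.51 in lung IL-4+ and −0.53 in IFNγ+ cells. Serpinb5 holds 4 of the 6 regions, so this median mostly describes that gene. The log2 sum of Serpinb12 (1 region) was −0.47 in LN IL-4+, 0.56 in lung IL-4+ and 1.83 in IFNγ+ cells. That of Serpinb3b (1 region) was 1.01, 0.71 and 1.74, and that of Serpinb5 was 4.35, 2.97 and 3.44. A region of Serpinb5 (maspin, known from epithelium), at chr1:106866680-106867165, was lower in lung IL-4+ than in LN IL-4+ cells by a log2 difference of −3.17 (adjusted p 0.0133 by limma). It measured 3.08 and 3.79 in LN IL-4+, −0.03, 1.24 and −0.40 in lung IL-4+, and 2.22 and 2.40 in IFNγ+ libraries.

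The clade B serpins on chromosome 13 had regions at 7 of 15 genes, 30 in all. Of these, 2 were called higher in lung IL-4+ than LN IL-4+ and 2 in IFNγ+ than LN IL-4+ cells, in both cases regions of Serpinb1b and Serpinb9. That is 6.67% of the 30 in each comparison, against 1.05% and 2.17% of all regions. The median differences were 0.02 and 0.79, and the 2 comparisons share the LN IL-4+ libraries.

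Serpinb9, an inhibitor of granzyme B, had at chr13:33000943-33001746 a log2 density of 2.88 and 3.50 in LN IL-4+, 5.09, 5.25 and 5.14 in lung IL-4+, and 5.32 and 5.49 in IFNγ+ libraries. It thus rose over LN IL-4+ in both lung populations, by 1.97 (adjusted p 0.00295) and 2.22 (adjusted p 0.00174, both by limma). Serpinb1b, at chr13:33071736-33072515, stepped up from 0.85 and 0.63 in LN IL-4+ through 2.32, 2.93 and 2.64 in lung IL-4+ to 4.77 and 5.04 in IFNγ+ libraries. Its differences from LN IL-4+ were 1.89 (adjusted p 0.0112) and 4.17 (adjusted p 0.000718, both by limma). Serpinb1b belongs to a group of close paralogs, so reads shared among them could move its values.

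Genes of plasminogen activation and of proteases that the members inhibit had 101 regions at 12 of 12 genes. Of these, 1 was called higher in lung IL-4+ and 2 in IFNγ+ than in LN IL-4+ cells, and 0 lower. At 0.99% and 1.98% of the 101 regions, these shares were close to the 1.05% and 2.17% of all regions, so nothing sets the list apart. Furin, a target of Serpinb8, had a region at chr7:80404549-80406644 that was higher in lung IL-4+ cells by 1.97 (adjusted p 0.0130 by limma). Its log2 density was 2.92 and 2.05 in LN IL-4+, 3.95, 4.68 and 4.74 in lung IL-4+, and 3.23 and 3.33 in IFNγ+ libraries. Anxa2 and S100a10, whose products form the annexin A2 complex that binds plasminogen, each had 1 region higher in IFNγ+ than in LN IL-4+ cells, by 3.17 (adjusted p 0.0138) and 1.61 (adjusted p 0.0273, both by limma). No region of Plau or Plat, the activator genes that Serpinb2 is known to inhibit at the protein level, was called. Over the list, the median differences were 0.39 in lung IL-4+ and 0.05 in IFNγ+ cells.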

How the data were processed

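ATAC-seq values of 7 libraries were analysed. Per the labels and the study's methods, the authors mapped reads to GRCm38/mm10 with Bowtie2 2.3.2, marked duplicates, removed mitochondrial, low-quality and blacklisted reads, called summits per replicate with MACS2 2.1.1, merged them over replicates, counted transposase insertions and normalized them with voom (limma 3.38.3, R 3.5.1). The deposited values are normalized log2 densities on a scale of insertions per kb per 1000000. Their distributions nearly coincide between libraries after removal of region length, so differences are relative to a common distribution and a density is not a literal rate. A rebuilt count is the number of lower distinct values in a library (ties at 8 decimals) and is a lower bound. Depth was 14005923 to 91681969 rebuilt insertions.

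All 113820 regions were fitted with limma 3.58.1 in R 4.3.3 (lmFit, 1 mean per population, all 7 libraries, eBayes with trend), with Benjamini-Hochberg adjustment within each contrast. Regions were called at a fold of 3 or more with an adjusted p under 0.05. No pseudocount or filter was used. Window sums were compared by two-sided exact permutation tests in Python 3.11.15 with scipy 1.17.1. The limma fit alone was tested on simulated data with independent normal noise, which lacked the spread classes and low counts of these libraries. GENCODE gene models and RefSeq sequence of GRCm38 were used. Reads from near-identical serpin paralogs may have been lost to the mapping-quality filter. Nothing in the labels says that replicates of a group are separate animals, so p values measure the spread between these libraries; the study's methods give mice as the unit.

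Regions named were those called in any contrast, those within 1 kb of a start, the highest of each gene and those beside the 10 kb limit; the remaining members were added after their values were seen. The 5 regions and 5 genes with the closest profile were named by root mean square difference. The members and lists were chosen with earlier results of these data known. Alternatives covered filters, pseudocount, centring, pairwise fits, a replicate block, array weights, the spread class, voom on rebuilt counts, thresholds, window size and leaving out each library.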

Additional observations from a re-analysis of the deposited data

How the results depend on the processing

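At the second intron 1 region, chosen for its IFNγ+ values, the differences are descriptions: over 20 alternatives, IFNγ+ exceeded LN IL-4+ by 4.42 to 5.52 and lung IL-4+ by 4.15 to 5.24. The Serpinb8 promoter difference between IFNγ+ and LN IL-4+ ran from 1.63 to 2.55 and was called in 13 of 20. At both single regions, alternatives that lowered or dropped the fold threshold or changed the window size reused the main fit. They could neither move the difference nor lose a call. The number of Serpinb regions called higher in IFNγ+ than in LN IL-4+ cells (2) became 1 with only the 2 populations compared, 4 with the spread class as a covariate, 4 with voom on rebuilt counts and 4 with 25 kb on each side, and ran from 0 to 3 when 1 library was left out. In the comparison used for the choice, from whose counts nothing is read, the number meeting the call rule with higher values in IFNγ+ than in lung IL-4+ cells (1) became 3 with array weights and 0 without a variance trend, and ran from 0 to 1 when 1 library was left out. The other 4 counts of called regions were 0 under all 20 alternatives. The small lung minus LN IL-4+ differences changed sign. At the second intron 1 region (0.36) it was −0.11 with voom on rebuilt counts and −0.0046 without LN IL-4+ replicate 1, within a leave-one-out range of −0.0046 to 0.94. For the Serpinb10 sum (0.17) it was −0.98 in the wide spread class, and when LN replicate 1 or replicate 3 of lung IL-4+ was left out it was −0.24 or −0.07, within a range of −0.24 to 0.57. For the Serpinb2 sum (0.30) it was −0.74 in the wide spread class. The cause of these changes was not tested.

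With the replicate number as a block, the counts of called regions became 1 (IFNγ+ over LN IL-4+) and 0 (IFNγ+ over lung IL-4+), and the Serpinb10 sum difference between lung and LN IL-4+ was −0.0664. Deviations of same-numbered LN and lung IL-4+ libraries correlated at −0.542 and −0.297. The labels do not say whether same numbers mean the same mouse, and with 2 LN libraries of different spread class these correlations cannot show it, so the numbers were not taken as pairs. Low insertion counts, down to 7 in the second intron 1 region, limit the precision of the IL-4+ levels.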
